A study of Mus musculus with 32 samples.

Results

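The lincRNA genes of the Ensembl catalogue were followed through the first wave of spermatogenesis. A gene was taken as a lincRNA gene when its Ensembl identifier had the type lincRNA in GENCODE mouse release M21, and 269 of the 20368 genes in the juvenile gene table met this rule. The table held only genes that reached 3 TPM in at least 1 mouse, where TPM is the number of transcripts of one gene, corrected for its length, with the total of each library scaled to a fixed sum. The unfiltered list of transcripts held 1655 lincRNA genes, so 1386 did not reach that level, and 555 of these were listed at 0 in all 28 mice.

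Long intergenic noncoding RNAs are transcribed by RNA polymerase II and are spliced and polyadenylated like mRNAs, but hold no long open reading frame. The best known of them act in the nucleus, in imprinted clusters or in X-chromosome inactivation, or host microRNAs and small nucleolar RNAs, and most have no known function. The testis is known for transcribing more of them than most other tissues, above all in pachytene spermatocytes and round spermatids.

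The samples were germ cells of male C57BL/6J mice, an inbred strain, without any treatment or introduced allele. They came from 28 single juvenile mice, 3 at 8 days post partum (dpp) and 5 at each of 10, 12, 14, 16 and 18 dpp, ages over which the most advanced germ cells pass from spermatogonia to late pachytene and diplotene spermatocytes. A further 4 adult samples were pools of 6 mice aged 9 weeks, enriched for pachytene and diplotene spermatocytes by sedimentation at unit gravity. The juvenile cells came from digested and washed tubules, so somatic cells of the tubule could remain, and all libraries were of poly(A) RNA.

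Correlations of log2(TPM + 1) across all genes between libraries of one age lay between 0.947 and 0.984. At 8 dpp the study had left out mice that were unlike the others of that age, so the likeness of the 3 mice used here follows in part from that choice. Mice 4 and 5 of 18 dpp stood apart from mice 1 to 3 of that age. Of the 135 lincRNA genes called higher at 18 than at 8 dpp, 97 (71.9%) had mice 1 to 3 all above mice 4 and 5, an order that held for 63.6% of all 6487 genes called higher. Of the 60 called lower, 27 (45.0%) had mice 1 to 3 all under mice 4 and 5, against 56.6% of all 7402 genes called lower. Over the 269 lincRNA genes and over all genes the first order held for 39.8% and 25.2% and the reverse for 14.5% and 32.7%. Because the unit holds no numbers of reads, sequencing depth and counting error cannot be given. The 6 pachytene spermatocyte marker genes were all higher at 18 than at 8 dpp, with summed levels between 149 and 206 TPM at 8 dpp, between 1546 and 2081 TPM at 18 dpp and between 3018 and 3228 TPM in the adult pools.

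RefSeq promoter windows, from 250 bases before to 50 bases after a transcription start on GRCm38.p6, were found for 133 of the 269 genes. The windows of 6 genes are shown because the results turn on them: 1700029M20Rik and 1700042G15Rik rose most, 1700110I01Rik and 4933406F09Rik share sequence, 4930455B14Rik belongs to a divergent pair and Meg3, of an imprinted cluster, fell. In that order they lie at chr4:135626405-135626704 (+), chr4:57364243-57364542 (-), chr14:3262152-3262451 (+), chr14:7412223-7412522 (+), chr14:8666140-8666439 (+) and chr12:109540746-109541045 (+). Capitals mark matches on either strand to CAGTTG, which MYB factors bind, to TGACGTCA, the cAMP response element, and to GTTGCC, one arm of the RFX motif.
1700029M20Rik: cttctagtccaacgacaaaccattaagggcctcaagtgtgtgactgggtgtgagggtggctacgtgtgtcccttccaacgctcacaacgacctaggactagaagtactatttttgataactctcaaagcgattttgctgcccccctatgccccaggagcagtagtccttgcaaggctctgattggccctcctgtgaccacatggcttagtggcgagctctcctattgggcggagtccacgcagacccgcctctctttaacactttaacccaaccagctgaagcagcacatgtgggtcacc
1700042G15Rik: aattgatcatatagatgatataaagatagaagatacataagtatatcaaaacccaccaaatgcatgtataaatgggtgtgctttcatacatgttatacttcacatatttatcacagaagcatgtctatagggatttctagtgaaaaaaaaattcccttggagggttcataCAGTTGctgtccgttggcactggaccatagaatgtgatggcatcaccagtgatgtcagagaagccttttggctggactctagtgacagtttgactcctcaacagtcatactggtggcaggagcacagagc
1700110I01Rik: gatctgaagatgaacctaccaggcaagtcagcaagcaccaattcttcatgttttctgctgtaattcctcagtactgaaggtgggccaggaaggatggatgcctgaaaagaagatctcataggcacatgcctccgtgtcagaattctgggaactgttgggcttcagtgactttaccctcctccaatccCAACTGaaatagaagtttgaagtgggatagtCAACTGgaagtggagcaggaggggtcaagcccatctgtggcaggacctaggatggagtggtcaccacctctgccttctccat
4933406F09Rik: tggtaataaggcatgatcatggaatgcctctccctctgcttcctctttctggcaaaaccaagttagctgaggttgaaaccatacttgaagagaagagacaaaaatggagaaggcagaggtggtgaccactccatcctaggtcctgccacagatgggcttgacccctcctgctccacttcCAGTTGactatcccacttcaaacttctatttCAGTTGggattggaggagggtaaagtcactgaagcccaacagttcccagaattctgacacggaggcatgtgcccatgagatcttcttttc
4930455B14Rik: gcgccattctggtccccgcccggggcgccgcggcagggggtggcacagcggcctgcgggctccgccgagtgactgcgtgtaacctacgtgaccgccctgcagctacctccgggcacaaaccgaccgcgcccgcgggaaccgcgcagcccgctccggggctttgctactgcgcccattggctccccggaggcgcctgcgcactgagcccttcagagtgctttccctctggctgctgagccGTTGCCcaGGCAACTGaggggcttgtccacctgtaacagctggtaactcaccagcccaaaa
Meg3: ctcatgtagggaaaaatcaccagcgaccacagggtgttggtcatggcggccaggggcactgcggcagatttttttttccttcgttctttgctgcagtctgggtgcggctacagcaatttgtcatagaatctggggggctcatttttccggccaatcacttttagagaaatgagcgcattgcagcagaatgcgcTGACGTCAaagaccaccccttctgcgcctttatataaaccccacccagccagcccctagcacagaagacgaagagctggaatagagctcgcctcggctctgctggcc
The windows of 1700110I01Rik and 4933406F09Rik, both on chromosome 14, held the same run of 180 bases on opposite strands, and both MYB matches of each lay in it. The longest run that 1700110I01Rik shared with any other named window was 14 bases. The run of 180 bases was present in 7 windows of the whole promoter table, so it is repeated in the genome. The transcripts of these genes were not compared, so whether reads were divided among them was not tested. In 4930455B14Rik the second RFX match overlapped the MYB match. CAGTTG was present in 13 of 80 windows of lincRNA genes higher at 18 dpp (16.3%), in 3 of 21 windows of those lower (14.3%) and in 13.7% of all 32851 windows. For GTTGCC the shares were 15.0%, 19.05% and 12.5%, and for TGACGTCA 3.75% (3 windows), 4.76% (1 window) and 1.79%. In the 32 windows of lincRNA genes not called they were 9.4% for CAGTTG, 9.4% for GTTGCC and 6.25% (2 windows) for TGACGTCA. A match to these letters does not show that a factor was bound.

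Most lincRNA genes had low levels. The mean over the 28 mice had a median of 2.59 TPM and ranged from 0.183 to 1328 TPM, with 53 genes at 10 TPM or more. The longest transcript had a median length of 1598 bases, and 252 of the 269 genes had more than 1 exon. On GRCm38, 129 overlapped no other annotated gene and 121 overlapped a gene on the opposite strand. The sources used here do not say whether reads were counted by strand, so reads of such a gene cannot be told from those of its antisense partner, and counts for the 129 genes are given as well. The reference also held NONCODE transcripts, and copies of a lincRNA gene among them could have taken part of its reads.

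**Figure D1:**
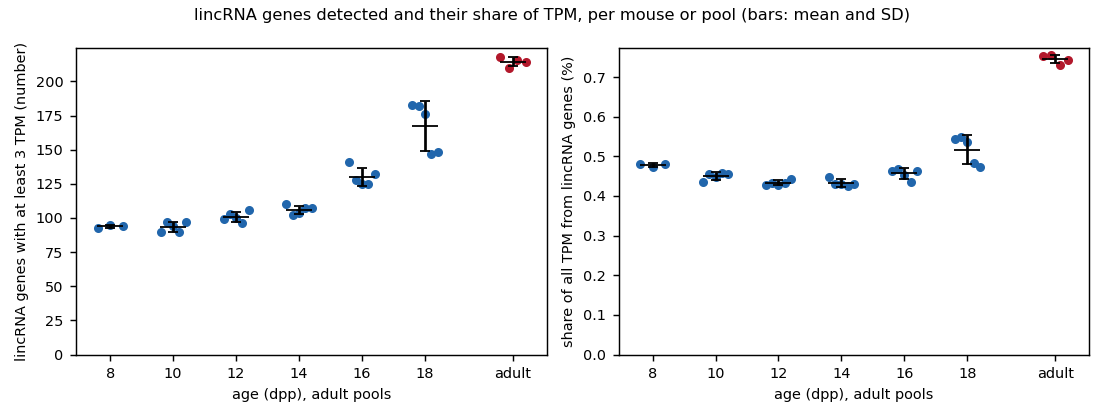
Left, number of lincRNA genes with at least 3 TPM, and right, percent of all TPM from lincRNA genes, in each juvenile mouse and adult pool, against age; bars are the mean and SD. Between 90 and 110 genes were detected in each mouse up to 14 dpp, between 147 and 183 at 18 dpp and between 210 and 218 in the adult pools.

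The number of lincRNA genes detected was higher from 16 dpp on. Counting every lincRNA gene of the transcript table with at least 3 TPM, 94.0 ± 1.0 (SD, n = 3) were detected at 8 dpp, 93.6 ± 3.5 (n = 5) at 10 dpp, 100.8 ± 3.8 (n = 5) at 12 dpp and 106.0 ± 3.1 (n = 5) at 14 dpp. At 16 dpp 130.2 ± 6.7 (n = 5) were detected, and at 18 dpp 167.2 ± 18.2 (n = 5). Mice 1 to 3 of 18 dpp had 183, 182 and 176 genes and mice 4 and 5 had 147 and 148, all above the highest mouse of 16 dpp with 141. The adult pools, whose table was normalised separately, had 214.5 ± 3.4 (n = 4). With a level of 1 TPM the means were 169.0 at 8 dpp, 276.8 at 18 dpp and 318.3 in the adult pools. The share of all TPM from lincRNA genes changed less, with 0.478% ± 0.0045 (SD, n = 3) at 8 dpp, 0.433% ± 0.0092 (n = 5) at 14 dpp, 0.517% ± 0.036 (n = 5) at 18 dpp and 0.745% ± 0.011 (n = 4) in the adult pools. At 18 dpp this share was 0.544%, 0.549% and 0.535% in mice 1 to 3 and 0.484% and 0.473% in mice 4 and 5, which is the level of 8 dpp. These counts and shares are descriptions without a test. Genes detected per mouse were not counted for all genes or for other gene types. Whether the higher number is particular to lincRNA genes was thus not tested. The paper reports a larger number of expressed genes in general at the age when late pachytene cells first appear.

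The comparison of 18 with 8 dpp asked which lincRNA genes differ between germ cells before and after late spermatocytes appear. Of the 269 genes 195 passed the test (limma, adjusted p under 0.05), against 68.2% of all genes. Of these, 135 were higher at 18 dpp, which is 50.2% of the 269 where 31.8% of all genes were higher, and 60 were lower, which is 22.3% where 36.3% of all genes were lower. The median log2 change was 0.74 for the lincRNA genes and -0.09 for all genes, and the latter became 0.05 with median-of-ratios factors. The mice of both ages did not overlap in 179 lincRNA genes, of which 175 passed the test, against 61.0% of all genes without overlap. Among the 129 genes that overlap no other gene, 85 were higher and 16 lower. With mice 1 to 3 alone at 18 dpp 139 were higher and 60 lower, and with mice 4 and 5 alone 120 and 48. In these bulk samples more cells of a type and more RNA per cell cannot be told apart, and a gene that entered the table only through the age where it was high had to differ.

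Antisense genes of the same catalogue had a share of higher genes near that of lincRNA genes, with 48.1% of 308 higher and 13.6% lower. Of 167 genes of the type processed transcript 44.9% were higher and 22.2% lower, and of 76 piRNA precursors 86.8% were higher and 5.26% lower. Of 13660 protein-coding genes 33.1% were higher and 41.4% lower, and of the NONCODE genes 26.0% were higher and 28.3% lower. The gene types were not tested against each other.

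Many of the 135 genes higher at 18 dpp were close to silent at first. At 8 dpp 52 of them (38.5%) were listed at 0 in all 3 mice, against 8.19% of all 6487 genes called higher, and 95 (70.4%) were under 1 TPM in all 3, against 24.8%. The mean first reached 3 TPM at 8 dpp in 15 genes, at 10 dpp in 1, at 12 dpp in 7, at 14 dpp in 4, at 16 dpp in 32 and at 18 dpp in 53, and it did so at no age in 23. Among all genes called higher 58.5% were at 3 TPM already at 8 dpp, and 10.6% and 12.8% first reached it at 16 and 18 dpp. Since a gene of low level entered the table only if it reached 3 TPM in some mouse, low genes that rose were kept and low genes that did not rise were not.

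**Figure D2:**
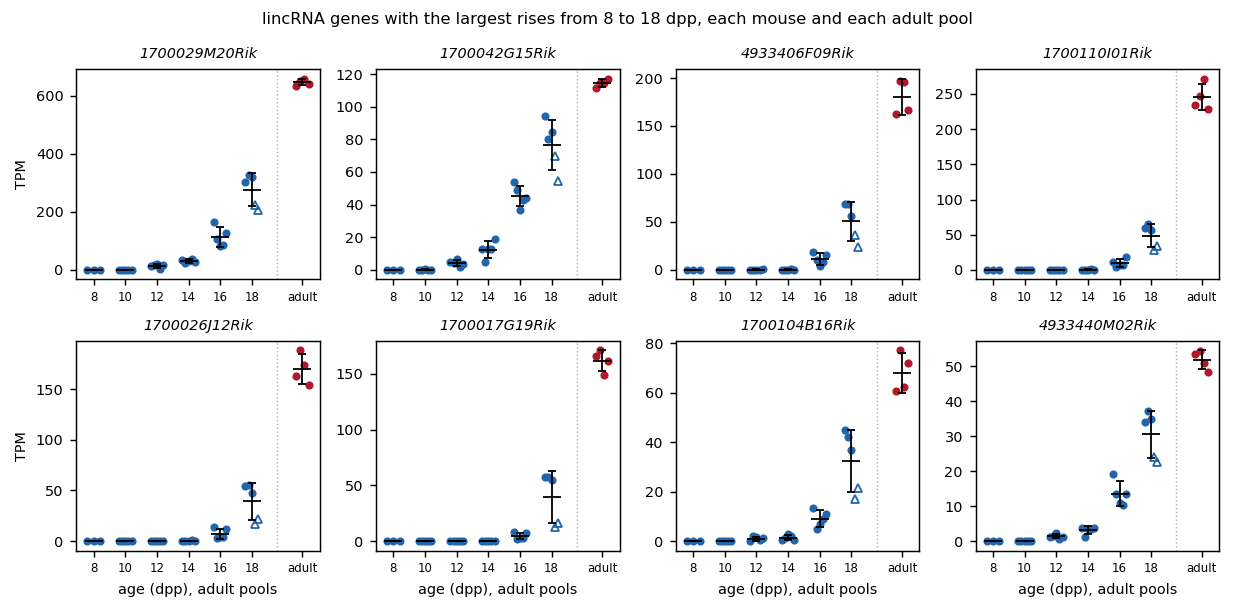
TPM of the 8 lincRNA genes with the largest rises from 8 to 18 dpp, in each juvenile mouse and adult pool, with the mean and SD as bars; open triangles are mice 4 and 5 of 18 dpp. All 8 genes were at most 1.43 TPM at 8 and 10 dpp, mice 4 and 5 lay under mice 1 to 3 at 18 dpp, and the adult pools lay above every juvenile mouse.

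The 2 largest rises began by 12 dpp. 1700029M20Rik (chr4:135626655-135630198, plus strand, overlapping no other gene) had 0.55, 0 and 1.38 TPM in the mice of 8 dpp, 14.3, 15.4, 22.1, 4.9 and 15.3 TPM at 12 dpp and 304, 327, 319, 223 and 205 TPM at 18 dpp. All mice of 12 dpp were above those of 10 dpp and all mice of 18 dpp above every younger mouse. On the log2(TPM + 1) scale it rose by 7.46 ± 0.31 from 8 to 18 dpp (SE, limma, adjusted p = 1.03e-16) and by 2.88 ± 0.27 from 10 to 12 dpp (adjusted p = 1.19e-08). 1700042G15Rik (chr4:57360868-57364292, minus strand, overlapping no other gene) was listed at 0 in all mice of 8 dpp, so no fold is given, and had 94.3, 80.4, 84.3, 69.7 and 54.2 TPM at 18 dpp (log2 change 6.25 ± 0.29, SE, limma, adjusted p = 6.15e-16). It too was higher in all mice of 12 dpp than in any of 10 dpp.

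The genes with the shared promoter stretch rose later. 4933406F09Rik (chr14:7412460-7508369, plus strand, overlapping 4 annotated genes and pseudogenes) had at most 0.37 TPM at 14 dpp, 18.7, 10.7, 3.84, 8.11 and 15.7 TPM at 16 dpp and 68.9, 68.1, 55.8, 35.8 and 23.9 TPM at 18 dpp. 1700110I01Rik (chr14:3262340-3305832, plus strand, overlapping no other gene) had at most 0.69 TPM at 14 dpp, 11.1, 4.62, 7.16, 7.11 and 18.4 TPM at 16 dpp and 59.1, 65.8, 56.96, 28.3 and 33.9 TPM at 18 dpp. In both, all mice of 18 dpp lay above every younger mouse. Their changes from 8 to 18 dpp were 5.58 ± 0.33 and 5.57 ± 0.29 on the log2 scale (SE, limma, adjusted p = 6.28e-14 and 5.64e-15). Whether their transcripts share reads was not tested, so their separate levels are uncertain.

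1700026J12Rik (chr16:49210641-49255772, minus strand) was listed at 0 in every mouse of 8, 10 and 12 dpp and had 54.6, 54.96, 47.4, 17.3 and 21.8 TPM at 18 dpp (log2 change 5.18 ± 0.35, SE, limma, adjusted p = 8.83e-13). 1700017G19Rik (chr3:40504867-40522912, minus strand) was listed at 0 at 8 dpp and had 57.6, 57.9, 55.1, 12.7 and 15.9 TPM at 18 dpp (log2 change 5.08 ± 0.39, SE, limma, adjusted p = 6.64e-12). In these 2 genes mice 4 and 5 lay far under mice 1 to 3, yet above every mouse of 16 dpp. 4933440M02Rik (chr7:125284025-125349788, minus strand, overlapping 4930533L02Rik) was listed at 0 at 8 dpp, had between 0.74 and 2.29 TPM at 12 dpp and 33.9, 37.1, 34.8, 24.1 and 22.6 TPM at 18 dpp (log2 change 4.95 ± 0.22, SE, limma, adjusted p = 3.20e-16).

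**Figure D3:**
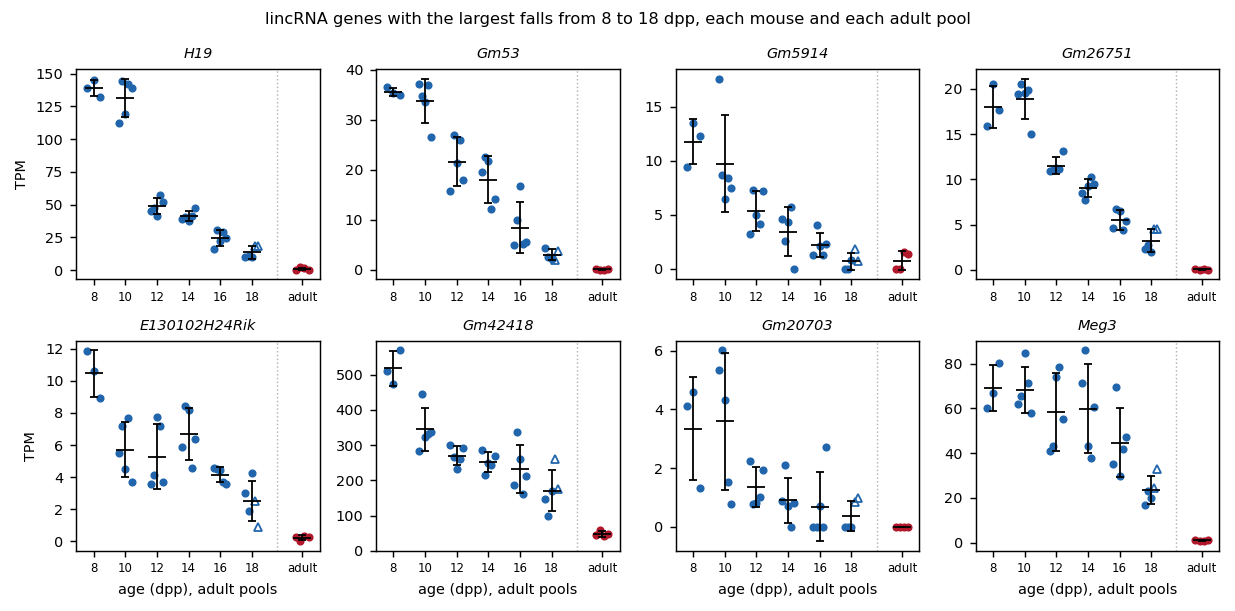
TPM of the 8 lincRNA genes with the largest falls from 8 to 18 dpp, drawn as in the plot of the rising genes. For H19, Gm53, Gm26751, E130102H24Rik, Gm42418 and Meg3 the adult pools lay under every mouse of 18 dpp, and for Gm5914 and Gm20703 they overlapped the mice of 18 dpp.

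The largest fall was that of H19, the imprinted RNA next to Igf2 and the host of Mir675. H19 (chr7:142575529-142578143, minus strand) had 139, 145 and 133 TPM at 8 dpp and 9.79, 10.5, 9.71, 18.7 and 18.4 TPM at 18 dpp. The ages did not overlap, and at 18 dpp mice 4 and 5 were above mice 1 to 3. The mean at 18 dpp was 0.0967 of that at 8 dpp (log2 change -3.34 ± 0.19, SE, limma, adjusted p = 1.90e-14). Meg3, a maternally expressed RNA of the Dlk1-Dio3 cluster (chr12:109541001-109571726, plus strand), had 60.02, 66.8 and 80.1 TPM at 8 dpp and 16.6, 23.3, 19.9, 24.4 and 33.1 TPM at 18 dpp (log2 change -1.54 ± 0.26, SE, limma, adjusted p = 7.94e-06). From 12 to 16 dpp its mice were spread between 29.9 and 85.9 TPM, overlapping those of 8 dpp.

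Gm53 (chr11:96251105-96264868, plus strand), with Hoxb9 as its nearest protein-coding gene, had 36.5, 35.3 and 35.02 TPM at 8 dpp and 4.48, 2.56, 2.28, 1.95 and 3.8 TPM at 18 dpp (log2 change -3.23 ± 0.28, SE, limma, adjusted p = 6.34e-11). Gm26751 (chr14:55864311-55874735, minus strand) lies opposite Nynrin, and both fell, Gm26751 with a log2 change of -2.22 ± 0.17 (SE, limma, adjusted p = 9.13e-12) and Nynrin with a change of -2.13 ± 0.11, SE, limma, adjusted p = 2.54e-15. Gm5914 (chr8:105624336-105637485, minus strand) lies opposite Ctcf, which encodes an insulator protein. Its change was -3.03 ± 0.44 (SE, limma, adjusted p = 1.04e-06) and that of Ctcf -0.70 ± 0.10, SE, limma, adjusted p = 3.56e-07. For both lincRNA genes reads cannot be told from those of the opposite gene.

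E130102H24Rik, which overlaps Mir101a, had 11.8, 10.6 and 8.95 TPM at 8 dpp and 3.03, 1.86, 4.26, 2.48 and 0.92 TPM at 18 dpp (log2 change -1.78 ± 0.26, SE, limma, adjusted p = 1.12e-06). Gm42418, which lies opposite an annotated ribosomal RNA gene, had 510.0, 473 and 569.8 TPM at 8 dpp and 147, 99.7, 170.0, 261 and 174 TPM at 18 dpp (log2 change -1.66 ± 0.21, SE, limma, adjusted p = 8.22e-08). In both genes the ages did not overlap. Reads of Gm42418 cannot be told from those of the ribosomal RNA gene, and the part of the latter in this fall was not tested. Gm20703 had 4.11, 4.59 and 1.33 TPM at 8 dpp and at most 0.97 TPM at 18 dpp (log2 change -1.64 ± 0.46, SE, limma, adjusted p = 0.00267), a call that was lost with mice 4 and 5 alone at 18 dpp (-1.08).

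Sertoli cell markers were mostly lower at 18 dpp too. Of 8 Sertoli cell markers 7 were lower and 1 higher at 18 dpp, with summed levels between 7591 and 8611 TPM at 8 dpp, between 3577 and 4740 TPM at 18 dpp and between 321 and 470.0 TPM in the adult pools. Of 5 peritubular markers 1 was lower, with sums between 1051 and 1160.0 TPM at 8 dpp, between 524 and 1034 TPM at 18 dpp and between 5.57 and 10.7 TPM in the adult pools. Of 6 spermatogonium markers 5 were lower and 1, Dmrtb1, higher. Their sums were between 367 and 464 TPM at 8 dpp, between 379 and 723 TPM at 18 dpp and between 1338 and 1505 TPM in the adult pools. Dmrtb1 alone had means of 54.9, 420 and 1427 TPM at 8 dpp, at 18 dpp and in the pools. No marker of these lists was at 0 in all mice, and their part in the falls was not tested. Among the other lists 3 of 6 Leydig and 4 of 5 macrophage markers were higher, 1 of 4 endothelial markers was lower, and of 5 red blood cell markers none passed the test.

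Neighbouring ages were compared to place the changes in time. From 8 to 10 dpp no lincRNA gene passed the test by limma, with 17 at an unadjusted p under 0.05, and 1.20% of all genes passed (0.977% higher and 0.226% lower). From 10 to 12 dpp 34 passed (12.6%, against 21.4% of all genes), 24 higher where 12.0% of all genes were higher and 10 lower where 9.39% were lower. From 12 to 14 dpp 1700042G15Rik and M5C1000I18Rik passed, both higher, against 0.172% of all genes, with 0.157% higher and 0.0147% lower. Without any one of mice 1 and 4 of 12 dpp or mice 1, 3, 6 and 7 of 14 dpp none passed. Without mouse 2 or 5 of 12 dpp 1 passed, without mouse 3 of 12 dpp or mouse 1 of 16 dpp 5, and without mouse 2 of 14 dpp 6. With the mouse number as a replicate block 0 passed.

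The later intervals held most of the changes. From 14 to 16 dpp 81 passed (30.1%, against 24.0% of all genes), 67 higher (24.9%) where 12.7% of all genes were higher and 14 lower where 11.3% were lower. From 16 to 18 dpp 160 passed (59.5%, against 54.0% of all genes), 115 higher (42.8%) where 23.4% of all genes were higher and 45 lower where 30.6% were lower. With mice 4 and 5 alone at 18 dpp the last count was 56, and with mice 1 to 3 alone 170.

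**Figure D4:**
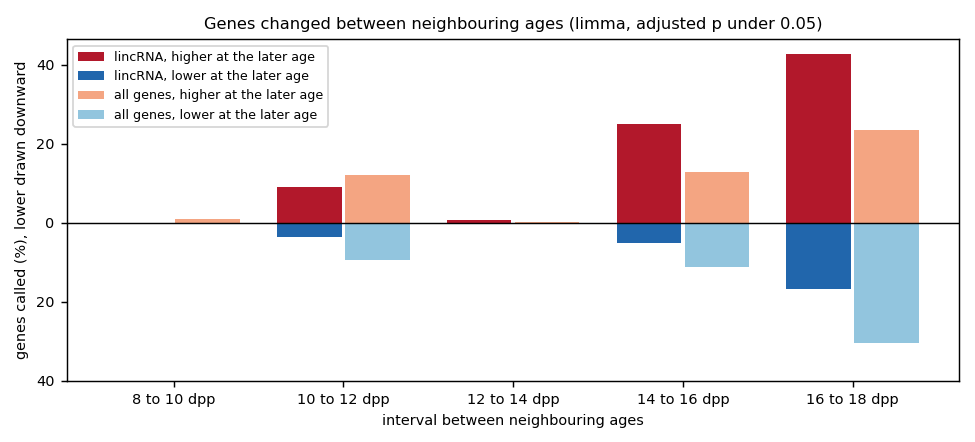
Percent of the 269 lincRNA genes and of all 20368 genes that passed the test (limma, adjusted p under 0.05) between neighbouring ages, higher at the later age drawn upward and lower drawn downward. From 14 to 16 and from 16 to 18 dpp 24.9% and 42.8% of lincRNA genes were higher, against 12.7% and 23.4% of all genes.

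M5C1000I18Rik (chr9:67758712-67760230, minus strand) rose step by step, with means of 1.24, 3.09, 9.35 and 23.3 TPM at 12, 14, 16 and 18 dpp. Each of the 4 steps from 10 dpp on passed the test, that from 12 to 14 dpp with a log2 change of 0.91 ± 0.18 (SE, limma, adjusted p = 0.0311). It lies opposite C2cd4b, which rose too (3.54 ± 0.30, SE, limma, adjusted p = 6.24e-11). 1700042G15Rik had 4.9, 4.41, 6.66, 1.53 and 3.8 TPM at 12 dpp and 12.9, 4.72, 12.5, 12.7 and 19.01 TPM at 14 dpp, where 1 mouse overlapped those of 12 dpp (log2 change 1.33 ± 0.25, SE, limma, adjusted p = 0.0228).

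Over all 6 ages, 208 of 269 lincRNA genes differed (F-test, limma, adjusted p under 0.05), which is 77.3% where 77.6% of all genes differed. Among these 208 the mean was highest at 18 dpp in 132 (63.5%), at 8 dpp in 32, at 10 dpp in 18, at 12 dpp in 8, at 14 dpp in 13 and at 16 dpp in 5. Among all genes that differed, 36.2% were highest at 18 dpp, 22.2% at 8 dpp and 16.0%, 8.60%, 12.1% and 5.00% at 10, 12, 14 and 16 dpp. A gene of low level was in the table only if some mouse reached 3 TPM. Low genes were thus kept by the age where they were high, so these shares may depend in part on the filter.

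An intermediate age, from 10 to 16 dpp, held the highest mean in 44 of the 208 lincRNA genes (21.2%) and in 41.6% of all genes that differed. These shares carry the same limit of the filter. Gm10605 (chr7:99625936-99631711, plus strand) was between 0.44 and 1.63 TPM at 8 dpp, between 6.95 and 9.95 TPM at 16 dpp and between 4.68 and 6.97 TPM at 18 dpp, and it was lower at 18 than at 16 dpp, with 1 mouse of 16 dpp inside the range of 18 dpp (log2 change -0.54 ± 0.17, SE, limma, adjusted p = 0.0101). From 8 to 18 dpp Gm10605 was higher (log2 change 1.74 ± 0.20, SE, limma, adjusted p = 1.29e-08), as was the opposite gene Tpbgl (2.87 ± 0.18, SE, limma, adjusted p = 2.64e-13). In the adult pools Gm10605 was between 0.31 and 0.47 TPM. 2700046A07Rik had 2.02, 2.09 and 2.5 TPM at 8 dpp and 5.77, 6.49, 5.33, 6.12 and 7.36 TPM at 12 dpp, without overlap, and between 1.57 and 4.02 TPM at 18 dpp.

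Gm38399, within Nav1 on the same strand, had 5.67, 4.01, 4.06, 3.78 and 3.69 TPM at 10 dpp and 1.25, 0.98, 0.67, 1.03 and 1.00 TPM at 12 dpp, all lower (log2 change -1.39 ± 0.21, SE, limma, adjusted p = 2.29e-05), and Nav1 fell from 8 to 18 dpp as well (-1.61 ± 0.13, SE, limma, adjusted p = 4.30e-11). 1810012K08Rik was highest at 12 dpp, Gm26964 and AI838599 at 14 dpp and Gm26776 at 16 dpp. None of these 4 passed the test between 8 and 18 dpp, with adjusted p by limma of 0.263, 0.103, 0.0976 and 0.614. AI838599 passed with the replicate block (-0.83), with mice 1 to 3 as a covariate (-0.82), with mice 1 to 3 alone at 18 dpp or at every age (-1.01), without mouse 3 of 8 dpp (-1.07) and without mouse 5 of 18 dpp (-0.92), and Gm26964 passed without mouse 1 of 8 dpp (-1.36).

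Of the 4 most abundant lincRNA genes in the juvenile mice, Gm42418 was among the largest falls given above. The other 3 changed by smaller steps. Gm26825 (chr5:5781530-5783636, plus strand, opposite the processed pseudogene Gm15459) was the highest lincRNA gene in every juvenile mouse, with 1442, 1387 and 1367 TPM at 8 dpp and 924, 1013, 949.8, 1209 and 1273 TPM at 18 dpp. Its change (log2 change -0.39 ± 0.08, SE, limma, adjusted p = 1.60e-04) did not pass with mice 4 and 5 alone at 18 dpp (-0.17). Gm26619 and 1810058I24Rik changed by -0.61 ± 0.08 and -0.75 ± 0.10 on the log2 scale (SE, limma, adjusted p = 5.48e-08 and 1.85e-07). The adult means of these 3 genes were 137, 199 and 48.5 TPM.

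Of a list of 9 imprinted genes 3 were among the lincRNA genes of the table. At 18 dpp 1 was higher and 2, H19 and Meg3, were lower. The others were not looked up under other gene types. Mirg (chr12:109729764-109749460, plus strand), which lies in the same cluster as Meg3 and hosts microRNAs, had 0.78, 2.8 and 1.69 TPM at 8 dpp and 16.8, 15.2, 12.2, 9.8 and 12.3 TPM at 18 dpp (log2 change 2.42 ± 0.30, SE, limma, adjusted p = 5.87e-08). All mice of 18 dpp lay above every younger mouse, and the step from 16 to 18 dpp was 1.67 ± 0.26 (SE, limma, adjusted p = 9.87e-06). In the adult pools Mirg had 42.2, 46.4, 37.2 and 43.7 TPM and Meg3 1.41, 0.7, 0.76 and 1.29 TPM.

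Of a list of 8 nuclear RNAs 3 were among the lincRNA genes of the table, and 1 was higher. Here too the others were not looked up under other gene types. Malat1, elsewhere among the most abundant nuclear RNAs, was between 0 and 8.88 TPM in the juvenile mice. Neat1, which builds paraspeckles, was between 0 and 6.68 TPM. The libraries were of poly(A) RNA and NONCODE copies could have taken reads, so these levels may not be those in the cells, which was not tested. Malat1 and Neat1 did not pass the test, with log2 changes of -0.89 ± 0.65 and 0.80 ± 0.50 (SE, limma, adjusted p = 0.231 and 0.166). Malat1 passed without mouse 4 of 18 dpp (-1.42) and Neat1 without mouse 5 of 18 dpp (1.23). Pvt1, a neighbour of Myc, had 1.6, 0.78 and 1.06 TPM at 8 dpp and 3.79, 5.74, 2.37, 4.19 and 1.35 TPM at 18 dpp, overlapping in 1 mouse (log2 change 0.99 ± 0.31, SE, limma, adjusted p = 0.00686), and this call was lost with mice 4 and 5 alone (0.72).

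Of 6 genes whose symbols name them as hosts of small RNAs (Snhg or Mir with the ending hg) 1 was higher and 3 were lower at 18 dpp. LincRNA genes that hold small RNAs under another name, such as H19, Mirg, E130102H24Rik and Ftx, are not among these 6. Snhg6, Snhg18 and Snhg20, hosts of small nucleolar RNAs by name, changed by -0.70 ± 0.13, -0.61 ± 0.14 and -0.94 ± 0.20 on the log2 scale (SE, limma, adjusted p = 2.14e-05, 4.15e-04 and 1.70e-04), and Snhg18 did not pass with mice 4 and 5 alone at 18 dpp (-0.28). Snhg6 lies opposite Mcmdc2, a gene of meiotic recombination, which rose (2.41 ± 0.24, SE, limma, adjusted p = 1.30e-09). Mir9-3hg, a microRNA host, had 5.91, 4.19 and 5.92 TPM at 8 dpp and 11.8, 11.1, 9.57, 11.7 and 10.4 TPM at 18 dpp (log2 change 0.92 ± 0.22, SE, limma, adjusted p = 5.29e-04). Snhg12 and Mir670hg had log2 changes of -0.10 ± 0.23, which turned to 0.064 with median-of-ratios factors, and 0.69 ± 0.36 (SE, limma, adjusted p = 0.707 and 0.0954). Mir670hg passed with median-of-ratios factors (0.85) and with mice 1 to 3 alone at 18 dpp or at every age (0.98).

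The X chromosome, which is silenced in pachytene spermatocytes, carried 9 of the lincRNA genes, of which 3 were higher and 5 lower at 18 than at 8 dpp. These were 33.3% and 55.6% of the 9, where 31.8% of all genes were higher and 36.3% lower. Gm15205 (chrX:161821366-161832112, minus strand) had 2.7, 0.28 and 1.1 TPM at 8 dpp and 10.7, 10.5, 4.53, 8.83 and 15.3 TPM at 18 dpp (log2 change 2.27 ± 0.32, SE, limma, adjusted p = 5.08e-07). Scml1 (chrX:161817734-161819587, minus strand) had 1.74, 1.47 and 4.22 TPM at 8 dpp and 9.49, 9.82, 13.3, 9.25 and 23.2 TPM at 18 dpp (log2 change 2.01 ± 0.28, SE, limma, adjusted p = 5.61e-07). These genes lie 1779 bases apart on one strand, and the RefSeq start of Scml1 lies beside the 5' end of Gm15205, so they may not be separate. Both rose from 10 to 12 dpp, by 1.52 ± 0.28 and 1.56 ± 0.25 on the log2 scale (SE, limma, adjusted p = 2.03e-04 and 3.55e-05).

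Tslrn1 (chrX:62510539-62527011, minus strand) had 9.28, 8.01 and 15.5 TPM at 8 dpp and 18.2, 28.5, 27.1, 32.4 and 29.5 TPM at 18 dpp (log2 change 1.26 ± 0.22, SE, limma, adjusted p = 1.22e-05). From 16 to 18 dpp 0 of the 9 X-linked lincRNA genes were higher and 3 were lower, where 23.4% of all genes were higher and 30.6% lower. In the adult pools Gm15205 had at most 0.99 TPM, Scml1 at most 0.96 TPM and Tslrn1 5.51, 11.1, 5.68 and 8.02 TPM. Ftx, of the X-inactivation centre, had a log2 change of -0.63 ± 0.27 (SE, limma, adjusted p = 0.0378), a call that was lost without mouse 1 or 3 of 8 dpp (-0.49 and -0.67) or without mouse 1, 2 or 3 of 18 dpp (-0.59, -0.49 and -0.62). It was also lost with median-of-ratios factors (-0.54), without a filter (-0.63), with only the 2 ages in the model (-0.63) and with mice 4 and 5 alone at 18 dpp (-0.24).

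The adult pools were used to ask which of these genes are present in enriched late spermatocytes. Of the 269 genes 154 had at least 3 TPM in all 4 pools. These were 121 of the 135 genes higher at 18 dpp (89.6%), 13 of the 60 lower (21.7%) and 20 of the 74 that did not pass (27.0%), against 88.5%, 41.1% and 39.4% of all genes of those classes. All pools lay above every mouse of 18 dpp for 109 of the 135 (80.7%, against 60.9% of all genes called higher), and under every mouse of 18 dpp for 48 of the 60 (80.0%, against 85.8% of all genes called lower). Of the 3 rising X-linked genes 1, Tslrn1, had at least 3 TPM in all pools, as had 120 of the 132 rising autosomal ones. The tables were normalised separately, so levels are set side by side without a test. The 6 spermatid markers summed to between 872 and 1189 TPM in the pools and between 6.13 and 17.0 TPM at 18 dpp, and their part in these levels was not tested.

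**Figure D5:**
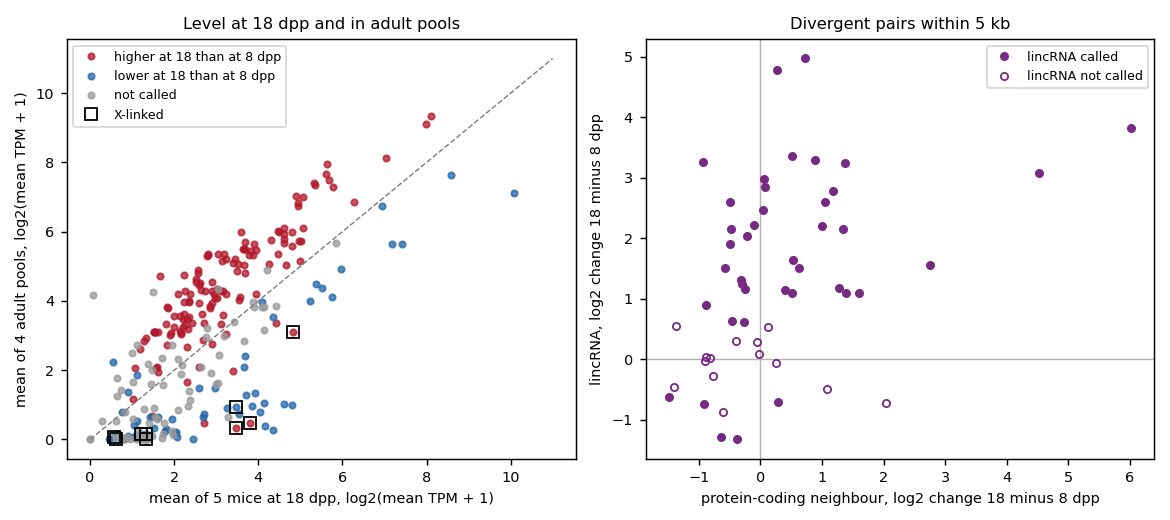
Left, level of the 269 lincRNA genes in the adult pools against that at 18 dpp, both as log2(mean TPM + 1), coloured by the test of 18 against 8 dpp, with X-linked genes boxed and equal levels dashed. Right, log2 change from 8 to 18 dpp of the lincRNA gene against that of its divergent protein-coding neighbour in 54 pairs; on the left 109 of 135 rising genes had all pools above the mice of 18 dpp, and on the right the lincRNA gene was higher in 35 pairs.

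The 3 highest lincRNA genes of the pools were all higher at 18 than at 8 dpp. 1700029M20Rik had 634, 650.5, 657 and 641 TPM in the pools. 1700018B24Rik (chr3:48605732-48609102, minus strand) had 555, 584, 534 and 521 TPM in the pools, 39.6, 35.6 and 32.7 TPM at 8 dpp and 331, 339, 309, 155 and 138 TPM at 18 dpp, a 7.06-fold higher mean than at 8 dpp (log2 change 2.69 ± 0.25, SE, limma, adjusted p = 4.06e-10). 1700001L05Rik (chr15:83353847-83367282, minus strand) had 278, 281, 269.9 and 284 TPM in the pools, 23.2, 22.2 and 18.2 TPM at 8 dpp and 156, 147, 150.2, 96.3 and 104 TPM at 18 dpp (log2 change 2.55 ± 0.18, SE, limma, adjusted p = 2.63e-12). In both, mice 4 and 5 of 18 dpp lay under mice 1 to 3 and above every mouse of 8 dpp.

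Of the 269 genes 57 started within 5 kb of a protein-coding gene that points away from them on the other strand. Of these 57, 38 (66.7%) were higher and 5 lower at 18 than at 8 dpp, and of the other 212 genes 97 (45.8%) were higher and 55 lower. No other annotated gene overlapped 45 of the 57 and 84 of the 212. Among all 129 lincRNA genes without overlap 65.9% were higher and 12.4% lower, a share of higher genes near that of the 57. The coding neighbour was in the table for 54 pairs. The lincRNA gene was higher in 35 of them, and its neighbour was higher too in 19, lower in 11 and not called in 5. It was lower in 5 pairs, in 4 of which the neighbour was lower too. The median log2 change was 1.17 for these lincRNA genes and 0.01 for their neighbours. Of all protein-coding genes 33.1% were higher and 41.4% lower. Gm27174 and Gm16677, beside Entpd4b and Entpd4, had the same TPM in every mouse, so these pairs count 1 measurement of the lincRNA gene 2 times, and Gm26689 and Gm26553 had the same TPM in every mouse as well.

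1700104B16Rik (chr8:33730534-33731819, minus strand) starts 14 bases from Gtf2e2, which encodes a subunit of the general transcription factor TFIIE. 1700104B16Rik was listed at 0 in all mice of 8 dpp and had 44.8, 42.2, 36.9, 17.01 and 21.6 TPM at 18 dpp (log2 change 4.97 ± 0.34, SE, limma, adjusted p = 1.07e-12). Gtf2e2 had 98.5 ± 8.1 TPM (SD, n = 3) at 8 dpp and 164.3 ± 20.3 TPM (n = 5) at 18 dpp, and its log2 change was 0.73 ± 0.09 (SE, limma, adjusted p = 3.58e-08). Both rose, the lincRNA gene from 0 and its neighbour from an already high level.

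4930455B14Rik (chr14:8666386-8673378, plus strand), whose promoter is shown above, starts 146 bases from 4930452B06Rik. It had at most 0.29 TPM at 8 dpp and 45.9, 40.3, 44.3, 15.01 and 15.7 TPM at 18 dpp (log2 change 4.78 ± 0.31, SE, limma, adjusted p = 3.34e-13), and its neighbour changed by 0.27 ± 0.12 (SE, limma, adjusted p = 0.0411). 1700046C09Rik (chr11:14560355-14599225, minus strand) starts 51 bases from Pom121l12, and both were listed at 0 in all mice of 8 dpp. At 18 dpp 1700046C09Rik had 19.1, 17.7, 19.7, 5.81 and 9.72 TPM (log2 change 3.82 ± 0.26, SE, limma, adjusted p = 9.91e-13) and Pom121l12 69.4 ± 29.5 TPM (SD, n = 5).

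Overlap with a gene on the opposite strand was present in 38 of the 60 lincRNA genes lower at 18 dpp and in 45 of the 135 higher, a difference that was not tested. In 84 pairs with a measured protein-coding gene on the opposite strand both genes were lower in 20 and both higher in 10, while in 5 the lincRNA gene was higher and the coding gene lower, and in 7 the reverse held. In 36 pairs the lincRNA gene was not called. The pairs came from 57 lincRNA genes, of which Gm26694 and Gm26904 gave 11 pairs each, and 5 of the 20 pairs that were both lower belong to Gm26694. Of all protein-coding genes 41.4% were lower.

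Gm5878 (chr6:85111416-85126125, minus strand) was listed both as a lincRNA gene and as a piRNA precursor, the long RNA from which piRNAs are cut. The gene had at most 0.1 TPM at 8 dpp and 30.6, 24.97, 27.99, 18.3 and 14.8 TPM at 18 dpp (log2 change 4.48 ± 0.23, SE, limma, adjusted p = 3.91e-15). The precursor had between 1.29 and 3.4 TPM at 18 dpp (log2 change 1.62 ± 0.20, SE, limma, adjusted p = 4.49e-08), so reads of this locus may have been divided between both entries. Gm5878 was also the 1 lincRNA gene more than 0.2 TPM from its summed transcripts, by at most 3.4 TPM, so its own level is less certain.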

How the data were processed

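Poly(A) RNA of germ cells from 28 juvenile mice and 4 adult pools was analysed. The authors aligned reads with Bowtie 1.0.0 to Ensembl, NONCODE and piRNA precursor transcripts on mm10 and estimated TPM with RSEM 1.2.8, as the submitters' notes and the methods state. The deposited transcript and adult tables hold TPM. The deposited juvenile gene table was assumed to hold TPM but held exp(log2(TPM + 1)) - 1 and was converted back, after which 20288 of 20368 genes were within 0.2 TPM of their summed transcripts. Gene types, positions and overlaps came from GENCODE M21 (GRCm38) and promoters from RefSeq.

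log2(TPM + 1) was fitted with limma 3.58.1 in R 4.3.3, all 28 mice in 1 model with a prior variance following the mean, and p-values were adjusted over all 20368 genes by Benjamini-Hochberg. The fit was tested on simulated data. Each mouse or pool was 1 sample. Members, lists, motifs and tests were chosen with earlier results of these data known. The genes named are the 8 largest called rises and falls from 8 to 18 dpp without overlap of the mice, the 2 largest called changes per interval, the 2 with the largest excess at each age of highest mean, the 4 highest in juvenile mice, the 3 highest in adult pools, the 3 X-linked genes of largest called change, 3 divergent pairs, and members of lists of imprinted, X-inactivation, nuclear and small RNA host genes. Gm5878 was added for its second entry after its values were seen. Alternatives covered the pseudocount, filter, scaling, prior, ages in the model, a replicate block, mice 1 to 3 as a covariate, genes without overlap and each mouse left out. Fits with mice 1 to 3 or mice 4 and 5 alone were added after seeing the data.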

Additional observations from a re-analysis of the deposited data

Results flagged for a closer look

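In 275 groups of 4 or 5 samples (each named gene at each age and in the adult pools, and the numbers and shares of lincRNA genes), 23 had 1 sample far from the others by Dixon's gap criterion. Chance gives about 1 in 20 if the values follow a normal distribution. A group with 1 sample above 0 and all others at 0 meets the criterion by construction, so the 23 cannot be set against that rate. Of genes otherwise listed at 0 in their group, 1 mouse of 10 dpp had 0.46 TPM of 1700042G15Rik, 0.18 TPM of 4933406F09Rik, 0.15 TPM of 1700110I01Rik or 0.32 TPM of 4930455B14Rik, 1 mouse of 12 dpp had 0.11 TPM of 1700017G19Rik, and 1 adult pool had 0.15 TPM of Gm26776, 0.99 TPM of Gm15205 or 2.28 TPM of Malat1. The highest sample stood apart at 10 dpp with 17.6 TPM of Gm5914, 5.67 TPM of Gm38399 and 267 TPM of 1810058I24Rik, and at 12 dpp with 0.89 TPM of 4933406F09Rik, 13.2 TPM of Gm26751 and 7.86 TPM of Mir670hg. It did so at 16 dpp with 2.71 TPM of Gm20703, 4.28 TPM of Gm26776 and 34.2 TPM of Snhg12, at 18 dpp with 3.95 TPM of Gm26776 and in the adult pools with 148 TPM of Gm26825. The lowest sample stood apart at 10 dpp with 15.04 TPM of Gm26751 and 1.74 TPM of Mirg, and at 14 dpp with 1.35 TPM of 4933440M02Rik. Of the shares of all TPM from lincRNA genes, 1 mouse of 14 dpp had 0.448%.

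Among the 1386 lincRNA genes outside the juvenile gene table, 26 had at least 3 TPM in all 4 adult pools although no juvenile mouse reached that level. The highest were 4930571K23Rik with 32.1, 25.1, 46.98 and 39.5 TPM in the pools and at most 0.37 TPM in a juvenile mouse, and Gm17200 with 27.1, 24.8, 23.7 and 24.3 TPM and 0 TPM in every juvenile mouse. They were picked after their values were seen. The same count was not made for other gene types, and the pools were normalised separately. The 6 spermatid markers summed to between 872 and 1189 TPM in the pools and between 6.13 and 17.0 TPM at 18 dpp. Their part in these levels was not tested.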

How the results depend on the processing

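The counts over the ages and of genes higher or lower at 18 than at 8 dpp stayed within 1.5 times of those reported under every alternative except one, with 107 to 201 higher. That exception is the restriction to the 129 genes without overlap, fewer by construction, with 105 differing over the ages, 85 higher and 16 lower, and 16, 1, 50 and 82 from 10 to 12, 12 to 14, 14 to 16 and 16 to 18 dpp. From 8 to 10 dpp 0 became 4 without a filter, and 1 with a constant prior, the covariate, or mice 1 to 3 or mice 4 and 5 alone at 18 dpp. From 12 to 14 dpp 2 became 1 with a pseudocount of 0.1, median-of-ratios factors or only the 2 ages, 0 without a filter or with mice 1 to 3 of every age, and 4 with mice 1 to 3 alone at 18 dpp. From 16 to 18 dpp 160 became 56 with mice 4 and 5 alone. The cause was not tested.

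Leaving out each mouse in turn gave 201 to 209 over the ages, 132 to 136 higher, 56 to 61 lower, and 0 to 1, 29 to 36, 0 to 6, 69 to 86 and 143 to 164 in the 5 intervals. The change of Gm26776 lay between -0.0102 and 0.2345 and that of Snhg12 between -0.2526 and 0.0402. Snhg12 became 0.0644 with median-of-ratios factors and, with mice 4 and 5 alone at 18 dpp, 0.27, and Neat1 -0.22. None of these 3 passed the test as reported. TPM holds no depth, so the calls rest on the spread between mice.

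Same-numbered mice of different ages did not pair: their deviations had a median correlation of 0.0147, and 3 of 57 pairs were over 0.1. With a replicate block 209 differed over the ages, 137 were higher and 62 lower, and 0, 33, 0, 75 and 160 differed in the intervals.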
